A study of Mus musculus with 90 samples.

Results

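The genes described here are 7 that mark the epicardium and other mesothelia: the transcription factor genes Wt1, Tbx18, Tcf21 and Bnc1, and the surface protein genes Upk3b, Upk1b and Msln. They are 7 of the 24984 genes in the count table of the neural progenitor (NPC) series and of the 24961 in that of the embryoid body (EB) series. They were chosen by their measured level, high in the line called mCaPS on NPC day 8, so their levels on that day are a description and carry no test. All 7 passed the filter on low counts in both tables.

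The study put different forms of CBX7 into J1 mouse embryonic stem cells and followed the cells through differentiation. CBX7 is a chromobox subunit of Polycomb repressive complex 1 (PRC1), which keeps developmental genes silent. The genotypes in the labels are WT, CBX7-CaPS, CBX7-mCaPS, CBX7 KO and CBX7-CaPS-R. As background to the study, CaPS stands for the compaction and phase separation domain of CBX2, placed in CBX7, and mCaPS for a mutated form of it; CaPS-R is only a name here. All stem cells were kept with LIF on feeder fibroblasts, and feeders were taken out before EBs were made. In the EB series cells hung in drops for 4 days, were pooled and then kept in suspension, with no retinoic acid named, until day 6 or 10. In the NPC series cells aggregated for 4 days and then received 5 uM retinoic acid until day 6 or 8. Day 0 is the stem cell stage of each series. A line sampled on a day of 1 series makes a group, which gives 30 groups with 3 libraries in each. The labels do not say that these came from separate cultures or how many clones a line stands for, so p-values measure the spread between libraries, which may be technical.

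The epicardium is the mesothelial sheet around the heart, and mesothelia of the same kind line the lung, gut, gonad and body wall. They arise from lateral plate mesoderm, make retinoic acid, and release cells that become fibroblasts and smooth muscle after an epithelial to mesenchymal transition. Wt1, Tbx18 and Tcf21 act in this lineage in the embryo, Bnc1 encodes a zinc finger protein of mesothelia and squamous epithelia, and Upk3b, Upk1b and Msln encode membrane proteins used as mesothelial surface markers.

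Libraries held 11.8 to 59.3 M counts in the NPC series (median 39.2) and 10.6 to 55.9 M in the EB series (median 40.6), of which the ribosomal precursor Rn45s took 4.24% to 50.3% and 2.73% to 88.7%. The CaPS-R tables held 11.7 to 29.1 M counts in NPC and 11 to 110 M in EB. In the EB series the 6 WT and CaPS libraries numbered 1 stood apart: even numbers made up 42.1% to 43.5% of their counts between 1 and 20, against 73.5% to 94.1% in the other EB libraries. Without those 6, the number of members called kept its value within 1.5 times in 12 of 12 EB comparisons. Cbx7 itself did not set the KO line apart: on NPC day 6 it stood at 27.9, 35 and 32.9 CPM (counts scaled to a common library size) in the libraries labelled KO and at 60.4, 27.2 and 32.2 CPM in WT. Which part of the gene was deleted is not given in the sources used here, so this count does not check the label, and the line is called KO-labelled. Of the 3 CaPS libraries on NPC days 6 and 8, library 1 sat with WT for most members, while libraries 2 and 3 sat near mCaPS, so CaPS means are given beside their libraries. In bulk RNA, fewer cells of a type and less RNA per cell cannot be told apart.

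The upstream sequences of 3 members that were high in mCaPS are shown because PRC1 in mouse cells is known for acting at CG-rich promoters, and these members differ in that respect. They are RefSeq sequences of GRCm38.p6, the 250 bases before the transcription start, read 5′ to 3′ on the strand of the gene with each CG dinucleotide in capitals.
Upk3b: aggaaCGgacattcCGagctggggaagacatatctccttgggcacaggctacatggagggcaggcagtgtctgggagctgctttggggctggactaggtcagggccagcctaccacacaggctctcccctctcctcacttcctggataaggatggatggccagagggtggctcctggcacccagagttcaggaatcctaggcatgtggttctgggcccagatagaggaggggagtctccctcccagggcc
Bnc1: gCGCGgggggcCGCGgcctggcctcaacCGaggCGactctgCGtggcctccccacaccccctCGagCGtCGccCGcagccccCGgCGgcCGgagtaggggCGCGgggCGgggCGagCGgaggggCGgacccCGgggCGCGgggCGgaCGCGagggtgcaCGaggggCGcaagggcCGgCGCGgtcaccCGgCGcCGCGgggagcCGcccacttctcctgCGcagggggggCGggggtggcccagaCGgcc
Tbx18: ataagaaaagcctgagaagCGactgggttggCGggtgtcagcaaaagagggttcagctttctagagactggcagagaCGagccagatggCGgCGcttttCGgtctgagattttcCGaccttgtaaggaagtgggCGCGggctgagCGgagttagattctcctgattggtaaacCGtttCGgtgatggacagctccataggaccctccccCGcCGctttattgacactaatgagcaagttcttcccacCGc
The Upk3b stretch is chr5:136038246-136038495 on the plus strand, the Bnc1 stretch chr7:81992300-81992549 on the minus strand, and the Tbx18 stretch chr9:87731261-87731510 on the minus strand. Bnc1 had 39 CG dinucleotides in this window, Tbx18 15, Tcf21 5 and Upk3b 2. The median over 32851 promoters was 6, with quartiles of 2 and 16, so Bnc1 lay above the upper quartile and Upk3b at the lower one. RefSeq promoters of Wt1, Upk1b and Msln were not used here. Short motifs were searched on both strands of the same windows. The TEAD motif GGAATG was found in Upk3b and in 12.6% of all promoters, the nuclear receptor core AGGTCA in Upk3b and in 14% of all, and the GATA motif AGATAA in Tcf21 and in 9.99% of all. The T-box motif AGGTGTGA (1.12% of all promoters) and the E-box CATATG (3.46%) were in none of the 4 member promoters at hand. The matches in Upk3b do not overlap, and a match is a run of letters, not a bound site.

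In the deposited table (mm10) Wt1 spans chr2:105126529-105173614 on the plus strand with 10 exon intervals, and Tcf21 spans chr10:22817276-22820143 on the minus strand with 2. Upk1b lies at chr16:38773184-38800203 and Msln at chr17:25748613-25754378, both on the minus strand. Exons of Bnc1 overlap a pseudogene, 4833418N17Rik, and those of Tbx18 an unclassified transcript, D030062O11Rik, each on the opposite strand. The kit kept strand, but whether counting used it is not given in the sources used here, so reads of these pairs may not be told apart. No exon of another gene overlapped the other 5 members.

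On NPC day 8, the stage used to pick them, 5 of the 7 genes had their highest mean in mCaPS: Wt1, Bnc1, Upk3b, Upk1b and Msln. Tbx18 and Tcf21 were highest in CaPS. Compared per kilobase of exon, the mCaPS mean was 66.8 CPM per kb for Wt1, 48 for Upk3b, 25.2 for Bnc1, 8.89 for Tcf21, 2.15 for Tbx18, 1.24 for Upk1b and 0.386 for Msln. All 7 were fitted more than 2-fold above WT, with a median log2 difference of 3.44 against 0 over all genes. More than 2-fold higher were 14.6% of all genes, and since this contrast chose the members nothing is read from the count.

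**Figure D1:**
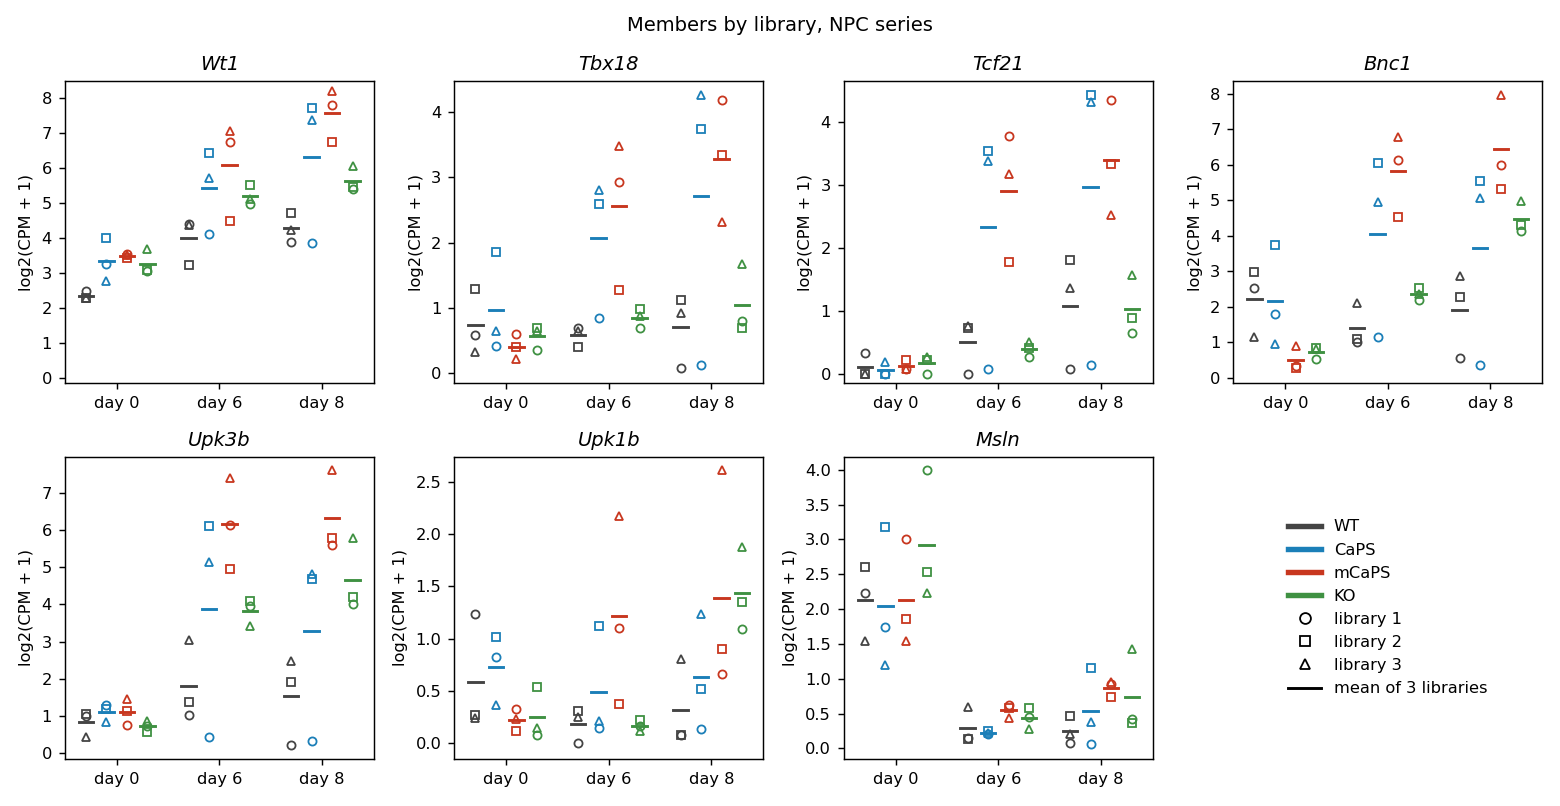
Level of each gene in the NPC series as log2(CPM + 1), by day and line. Each symbol is 1 library and each bar the mean of 3. On days 6 and 8 CaPS library 1 sits with WT, while CaPS libraries 2 and 3 sit with mCaPS for Wt1, Tbx18, Tcf21 and Bnc1. Msln is highest on day 0.

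Wt1, a zinc finger regulator of the epicardium, kidney and gonad, read 222, 106 and 293 CPM in the mCaPS libraries of day 8 and 13.9, 25.5 and 17.7 CPM in WT. CaPS gave 13.4, 209 and 165 CPM for Wt1, and the KO-labelled line 41, 42.7 and 65.6 CPM. Every mCaPS library was above every WT and KO-labelled library, whereas CaPS was split, with its library 1 below all WT libraries. Bnc1 read 63.3, 39 and 250 CPM in mCaPS, 0.475, 3.88 and 6.31 CPM in WT, 0.291, 45.9 and 32.4 CPM in CaPS, and 16.4, 18.8 and 30.3 CPM in the KO-labelled line. The 4 lines thus fell in the order mCaPS, CaPS, KO-labelled, WT by mean, but CaPS overlapped each of the other lines, and the other 3 lines did not overlap among themselves. Upk3b, an uroplakin of mesothelial and urothelial membranes, read 47, 54.1 and 192 CPM in mCaPS, 0.178, 2.77 and 4.58 CPM in WT, 0.267, 24.5 and 27.2 CPM in CaPS, and 15, 17.4 and 54.1 CPM in the KO-labelled line, whose library 3 reached the mCaPS range.

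Tbx18 and Tcf21 had another order on day 8. Tbx18, a T-box repressor of the epicardium and sinus node, read 17.2, 9.12 and 3.98 CPM in mCaPS and 0.0969, 12.3 and 18.2 CPM in CaPS, against 0.0593, 1.18 and 0.901 CPM in WT and 0.734, 0.612 and 2.19 CPM in the KO-labelled line. Tcf21, a helix-loop-helix factor of epicardial fibroblast precursors, read 19.3, 9.1 and 4.72 CPM in mCaPS, 0.0969, 20.5 and 18.9 CPM in CaPS, 0.0593, 2.48 and 1.58 CPM in WT, and 0.564, 0.848 and 1.95 CPM in the KO-labelled line. For both genes the KO-labelled libraries overlapped WT, with fitted log2 differences of 0.7 for Tbx18 and -0.3 for Tcf21, while those of Upk3b, Upk1b and Bnc1 were 3.53, 2.68 and 2.63.

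Within mCaPS the libraries differed in the relative levels of the members. Library 3 of day 8 was the highest of the 3 for Upk3b, Upk1b, Msln, Bnc1 and Wt1 and the lowest for Tbx18 and Tcf21, so Tbx18 and Tcf21 parted from the other members. Library 3 also had more Rn45s, 36.6% of its counts against 11.9% and 16.5% in libraries 1 and 2. The part of Rn45s in this was not tested. Upk1b, a tetraspanin partner of Upk3 proteins, read 0.586, 0.864 and 5.11 CPM in mCaPS and 1.13, 1.55 and 2.68 CPM in the KO-labelled line, and the ranges of the 2 lines overlapped. Without mCaPS library 3 the log2 ratio of mCaPS to WT means for Upk1b was 1.33, and without WT library 3 it was 5.27. Upk1b thus rests on few counts, 28, 36 and 158 in the mCaPS libraries.

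**Figure D2:**
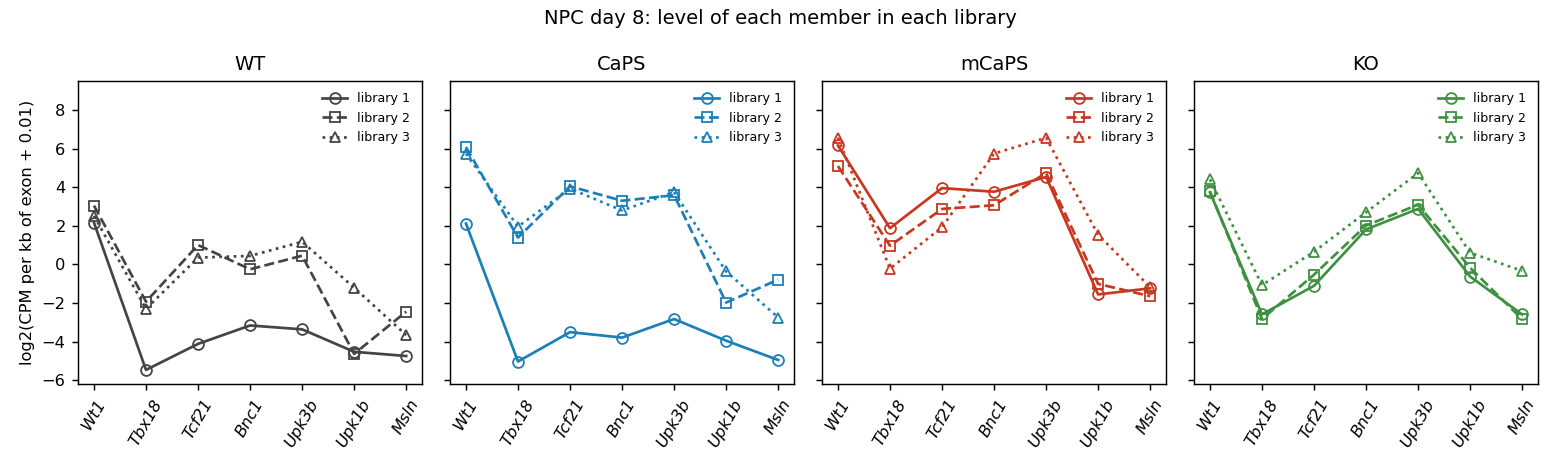
Level of each gene in each NPC day 8 library, as log2 of CPM per kb of exon plus 0.01, one panel per line. CaPS library 1 follows WT library 1, and mCaPS library 3 is the highest mCaPS library for Bnc1, Upk3b and Upk1b and the lowest for Tbx18 and Tcf21.

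Msln, the GPI-linked surface protein mesothelin, goes against the name of the group. It was highest on day 0 of this series: 3.7, 5.1 and 1.92 CPM in WT and 14.9, 4.79 and 3.7 CPM in KO-labelled stem cells, against 0.9, 0.672 and 0.938 CPM in mCaPS on day 8. Over the 36 NPC libraries the log2(CPM + 1) of Msln had a correlation of -0.33 with the mean of the other members, while the other 6 had correlations of 0.65 (Upk1b) to 0.93 (Bnc1). These are descriptions over libraries that include the day used to pick the genes.

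The members were picked on a later day of the NPC series than day 6, but with earlier results of these data known. Day 6 shares its lines and its fit with that later day, so its tests are not independent of the choice. Against WT, 3 of 7 rose in mCaPS by edgeR's quasi-likelihood test at an adjusted p below 0.05, namely Bnc1, Upk3b and Wt1, where 2.22% of all genes were called in either direction and 1.35% were higher. In 6 of the 7, all but Msln, every mCaPS library lay above every WT library, as in 17.3% of all genes tested. DESeq2 called 5 members and 6.62% of all genes. The median log2 difference of the 7 was 3.57, against -0.01 over all genes tested.

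Bnc1 read 69.2, 21.9 and 110 CPM in mCaPS on day 6 and 1.03, 1.13 and 3.31 CPM in WT, a log2 difference of 5.21 ± 1.29 (SE, adjusted p = 0.0324 by edgeR's quasi-likelihood test). Upk3b read 69.4, 30.1 and 168 CPM in mCaPS and 1.03, 1.62 and 7.28 CPM in WT, a difference of 4.76 ± 1.25 (edgeR adjusted p = 0.0381). Wt1 read 107, 21.4 and 132 CPM in mCaPS and 20.3, 8.36 and 19.8 CPM in WT, a difference of 2.43 ± 0.66 (edgeR adjusted p = 0.0446). In all 3 genes mCaPS library 2 was the lowest of its group, and for Wt1 it lay just above the WT libraries.

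These calls are close to the threshold. Leaving out mCaPS library 1 or 3, or WT library 1, 2 or 3, ended all 3, with adjusted p of 0.103, 0.173, 0.164, 0.131 and 0.0693 for Bnc1 in that order, and testing without the filter on low counts gave 0.0525 for Bnc1. Fold changes stayed high in each of these fits, at a log2 difference of 4.65 to 5.95 for Bnc1. Tbx18 read 6.64, 1.41 and 10.1 CPM in mCaPS and 0.625, 0.329 and 0.572 CPM in WT (log2 difference 3.57 ± 1.11, edgeR adjusted p = 0.0824), and passed without mCaPS library 2 (0.0431). Tcf21 read 12.7, 2.43 and 8.01 CPM in mCaPS and 0, 0.657 and 0.7 CPM in WT (4.09 ± 1.42, edgeR adjusted p = 0.116).

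CaPS and the KO-labelled line were set against the same WT libraries, so the 3 comparisons are not independent. None of the 7 passed in CaPS (0% of all genes called by edgeR) or in the KO-labelled line (0.0281%). At an unadjusted p below 0.05 by edgeR there were 5 in CaPS (Upk3b, Bnc1, Wt1, Tbx18 and Tcf21), where 6.59% of all genes reached that level, and 0 in the KO-labelled line, where 4.76% did. DESeq2 called 1 (Bnc1) in CaPS and 0 in the KO-labelled line, with 0.774% and 0.124% of all genes. CaPS was split as on day 8: Bnc1 read 1.22, 65.1 and 29.8 CPM, Upk3b 0.344, 67.1 and 34.2 CPM, and Tcf21 0.0529, 10.6 and 9.42 CPM. Of the 7 members, CaPS library 1 exceeded all WT libraries in 1, library 2 in 6 and library 3 in 5, as did 21.9%, 30.6% and 28.4% of all genes tested. Without CaPS library 1, Bnc1 passed with a log2 difference of 4.72 and an edgeR adjusted p of 0.0442, and 198 genes were called in place of 0.

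In the KO-labelled line Upk3b was between the others on day 6, at 14.4, 16 and 9.76 CPM, above every WT library and below every mCaPS library. Its log2 difference from WT was 2.03 ± 1.12 (edgeR adjusted p = 1). Bnc1 read 3.59, 4.81 and 4.13 CPM and Wt1 30.8, 45.2 and 33.8 CPM there, also with no overlap with WT. The share of all genes without overlap in this pair was not computed. For mCaPS against WT 17.3% of all genes lay wholly above, so a lack of overlap is not rare. Set against the KO-labelled line directly, mCaPS had 0 of 7 members called (4.11% of all genes), with 5 at an unadjusted p below 0.05 (17.9%) and 4 by DESeq2 (7.51%). The nearest was Bnc1, with a log2 difference of 4 ± 1.21 (edgeR adjusted p = 0.0565). A fit of these 2 groups alone called 5 members, Upk3b (0.0294), Upk1b (0.0299), Bnc1 (0.00892), Tbx18 (0.0271) and Tcf21 (0.00639). It also called far more genes in all, 3571 in place of 732. Libraries of equal number moved together only weakly in this pair (r of 0.11, 0.15 and 0.12). The same 2-group fit with the replicate number as a block called 2, Bnc1 (0.0247) and Tcf21 (0.0124). With the block 3716 genes were called in all. Without mCaPS library 2, Upk1b, Bnc1 and Tcf21 passed. CaPS against mCaPS had 0 of 7 called (0.0112% of all genes), 0 at an unadjusted p below 0.05 (3.03%) and 0 by DESeq2 (0.0133%). The log2 difference of CaPS from mCaPS was -1.06 ± 1.08 for Bnc1 and -0.21 ± 1.22 for Tcf21. Each error was larger than its difference, so the lack of calls does not show equal levels.

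**Figure D3:**
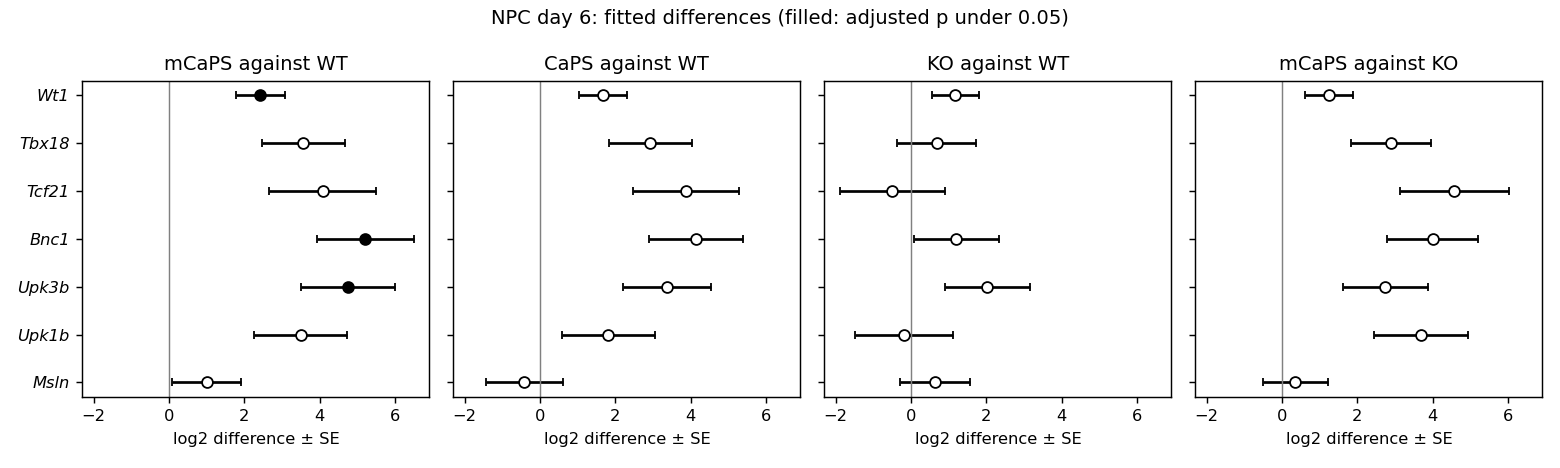
Fitted log2 differences with their SE on NPC day 6 for 4 pairs of lines, the KO panels being the KO-labelled line. Filled symbols passed an adjusted p of 0.05: Wt1, Bnc1 and Upk3b in mCaPS against WT, and no others.

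From day 0 to day 6 all 7 members changed in mCaPS (39.2% of all genes did): 6 rose, as did 20.4% of all genes, and Msln fell, as did 18.8%. Bnc1 went from 0.256, 0.205 and 0.856 CPM to 69.2, 21.9 and 110 CPM, a log2 change of 7.29 ± 1.46 (edgeR adjusted p = 0.00026). Upk3b rose by 6.2 ± 1.34 (edgeR adjusted p = 6e-04) from 0.691, 1.19 and 1.77 CPM, and Tcf21 by 6.3 ± 1.65 (0.00312) from 0.0512, 0.164 and 0.0571 CPM, which are 12 counts in all. The ratio of summed Tcf21 levels was 83.1, with a 95% exact interval of 47.4 to 161 that covers counting error only. Wt1 rose by 3.07 ± 0.67, Tbx18 by 4.14 ± 1.15 and Upk1b by 3.27 ± 1.22. The Upk1b call (edgeR adjusted p = 0.032) was lost without day 0 library 1, 2 or 3 or without day 6 library 3 (0.0546, 0.114, 0.0831 and 0.214). Msln changed by -3.05 ± 0.87 (0.00632).

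On NPC day 0 Wt1 itself read 10.7, 9.85 and 10.4 CPM in mCaPS and 4.59, 3.87 and 3.91 CPM in WT, groups that did not overlap. CaPS (8.55, 15.1 and 5.89 CPM) and the KO-labelled line (7.27, 7.5 and 11.9 CPM) also lay above WT there. On EB day 0 Wt1 overlapped, at 4.1, 5.14 and 3.83 CPM in mCaPS and 5.46, 7.99 and 3.02 CPM in WT. No test of day 0 between lines was made, and the share of all genes without overlap on that day was not computed. In WT of the NPC series 2 of 7 members changed from day 0 to day 6 (37.3% of all genes). Wt1 rose by 1.97 ± 0.66 (edgeR adjusted p = 0.0204) from 4.59, 3.87 and 3.91 CPM, a call lost without day 0 library 2 or 3 or day 6 library 1 or 3 (adjusted p of 0.0561 to 0.0614). Msln changed by -3.94 ± 0.94 (0.00149). Bnc1 read 4.76, 6.92 and 1.23 CPM in WT on NPC day 0, above all mCaPS libraries of that day. On EB day 0 Bnc1 overlapped, at 5.56, 4.06 and 3.19 CPM in mCaPS and 1.42, 3.98 and 9.82 CPM in WT. From NPC day 0 to day 6 the Bnc1 change in WT was -1.26 ± 1.15.

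The difference between these changes was tested as an interaction, a contrast added after the data had been seen. Of the 7 members, 1 passed (2.19% of all genes): the Bnc1 change was 8.55 ± 1.81 larger on the log2 scale in mCaPS than in WT (edgeR adjusted p = 0.0123), and it passed with each of the 12 libraries left out in turn (0.00657 to 0.0492). Upk1b (5.25 ± 1.73, 0.106), Tbx18 (4.72 ± 1.55, 0.106) and Upk3b (4.2 ± 1.68, 0.199) did not pass. The stem cell libraries of WT and mCaPS also differed in a fibroblast and feeder list of 12 genes, which summed to 446 to 4230 CPM in WT and 112 to 200 CPM in mCaPS on NPC day 0; its part in the Bnc1 difference was not tested.

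No member passed between day 6 and day 8 in the lines where this was tested. In the KO-labelled line 0 of 7 members passed by edgeR (5.01% of all genes), with 2 at an unadjusted p below 0.05 (18.8%) and 1 by DESeq2 (8.35%). Upk1b read 0.122, 0.167 and 0.0844 CPM on day 6 and 1.13, 1.55 and 2.68 CPM on day 8 (log2 change 3.8 ± 1.24, edgeR adjusted p = 0.0699), and the Bnc1 difference was 2.38 ± 1.13 (0.25); neither gene's days overlapped. The share of all genes without overlap between these days was not computed. In a fit of these 2 groups alone both genes passed, Upk1b at 0.0213 and Bnc1 at 0.0172, and 704 genes were called in place of 892. In CaPS 0 of 7 passed by edgeR (3.18% of all genes), 1 at an unadjusted p below 0.05 (16.7%) and 0 by DESeq2 (6.12%). That 1 was Wt1, with a log2 difference of 1.34 ± 0.63 (edgeR adjusted p = 0.28).

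Other genes of epicardium and mesothelium were listed from general knowledge with earlier results of these data known. Of 19 tested, 4 rose in mCaPS against WT on NPC day 6 and 0 fell: Gata4, Gata6, Podxl and Rspo1, of which Gata6 and Rspo1 were named after their values were seen. The median log2 difference of the 19 was 1.79, against -0.01 over all genes, of which 1.35% rose. Gata4 and Gata6 encode GATA factors of the heart and its covering layers. Gata4 read 380, 158 and 505 CPM in mCaPS and 15.9, 31 and 34.4 CPM in WT (3.68 ± 0.87, edgeR adjusted p = 0.0292). Podxl, a sialomucin of mesothelia and podocytes, read 635, 594 and 1210 CPM against 84.7, 177 and 168 CPM (2.5 ± 0.55, 0.0233). The keratin genes of simple epithelia Krt8 (2.14 ± 0.77, 0.13) and Krt18 (2.19 ± 0.79, 0.133) were higher in every mCaPS library but did not pass. Against the KO-labelled line on day 6 the same list had 4 of 19 higher and 0 lower, with a median of 1.37 against 0.01. In that pair 4.11% of all genes were called in either direction. In the KO-labelled line itself Gata4 read 8.49, 11.1 and 14.6 CPM on day 6 and 15.2, 11.6 and 24.6 CPM on day 8. On day 6 every one of them lay below the lowest WT library, and on day 8 they lay within the WT range. The list of 19 went both ways on day 8, where no test was made. By fitted value 13 were more than 2-fold higher in mCaPS than in WT and 5 more than 2-fold lower (median log2 difference 1.86). Over all genes 14.6% were more than 2-fold higher. Against the KO-labelled line 7 were more than 2-fold higher in mCaPS and 5 more than 2-fold lower (median 0.61).

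Among 8 genes of the epithelial to mesenchymal transition, Snai1, named after its value was seen, and Pdgfra rose in mCaPS on day 6 and none fell, with a median of 2.47. Pdgfra, the receptor of epicardium-derived fibroblasts, read 190, 98.9 and 325 CPM against 8.97, 24.5 and 19.1 CPM in WT (3.54 ± 0.96, edgeR adjusted p = 0.0448). Tgfbr3, a TGF-beta co-receptor, missed the threshold (2.67 ± 0.76, 0.057), and Zeb1 (0.22 ± 0.28) and Zeb2 (-0.59 ± 0.35) showed small differences. Of 10 genes of retinoic acid metabolism and response, 1 passed, Dhrs3, a retinal reductase (1.26 ± 0.32, 0.036), with a median over the list of 0.22. The binding protein gene Crabp2 was at 154 CPM in mCaPS and 636 CPM in WT (-2.04 ± 0.63, 0.0788).

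Markers of other cell types also differed between mCaPS and WT, and their part in the members' levels was not tested. Summed over 10 genes, neural progenitor and neuron markers were at 114 to 393 CPM in mCaPS and 1390 to 2400 CPM in WT on NPC day 8. By fitted value all 10 were more than 2-fold lower. Over all genes 14.6% were more than 2-fold higher, and the share more than 2-fold lower is not given here. The median fitted log2 difference of the neural list from WT on day 8 was -3.48 in mCaPS and -0.84 in CaPS. That of the members was 3.44 in mCaPS and 2.8 in CaPS. Both CaPS medians mix library 1, which sat with WT for most members, with libraries 2 and 3. Neural sums of the single CaPS libraries are not given here. On day 6 the neural sums were 127 to 294 CPM in mCaPS and 513 to 741 CPM in WT. Lateral plate and heart field markers (9 genes) summed to 138 to 207 CPM in mCaPS and 5.99 to 32.4 CPM in WT, and to 19.4 to 47.7 CPM in the KO-labelled line, and on day 6 to 147 to 409 CPM in mCaPS and 15.8 to 33.8 CPM in WT. The fibroblast and feeder list summed to 676 to 2450 CPM in mCaPS and 65.5 to 223 CPM in WT on day 8, and to 326 to 1300 CPM and 78.7 to 176 CPM on day 6. Its genes did not move together: on day 8, 4 of 12 were fitted more than 2-fold higher and 4 more than 2-fold lower in mCaPS (median log2 difference 0.54), and on day 6 the median was 0.61 and 2 of 12 rose. Those 2, Col3a1 (374 CPM in mCaPS and 24.5 CPM in WT) and Postn (64.8 and 1.31 CPM), were named after their values were seen. On day 0, where this list reached 4230 CPM in WT, the 7 members summed to 7.87 to 18.6 CPM in WT.

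Uroplakins are also genes of the bladder lining, and Wt1 is a gene of kidney and gonad. Of the urothelial markers Upk2 was at 0 in all NPC day 8 libraries of the 4 lines and Krt5 was at or below 0.144 CPM, while Upk1a read 12.4, 19.4 and 23.4 CPM in mCaPS and 1.1, 2.42 and 3.38 CPM in WT. The list of 7 urothelial genes summed to 59.6 to 78.6 CPM in mCaPS and 18.8 to 31.2 CPM in WT on day 8. Kidney and podocyte markers (8 genes) were lower in mCaPS, at 33.5 to 57.9 CPM against 228 to 393 CPM in WT. Gonad markers (6 genes) summed to 9.38 to 11.9 CPM in mCaPS and 13.7 to 18.2 CPM in WT. Heart muscle markers (10 genes) summed to 36.9 to 85.4 CPM in mCaPS and 4.04 to 9.91 CPM in WT. On day 8 blood and endothelial markers (8 genes) summed to 98.3 to 219 CPM in mCaPS and 12 to 25.8 CPM in WT.

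**Figure D4:**
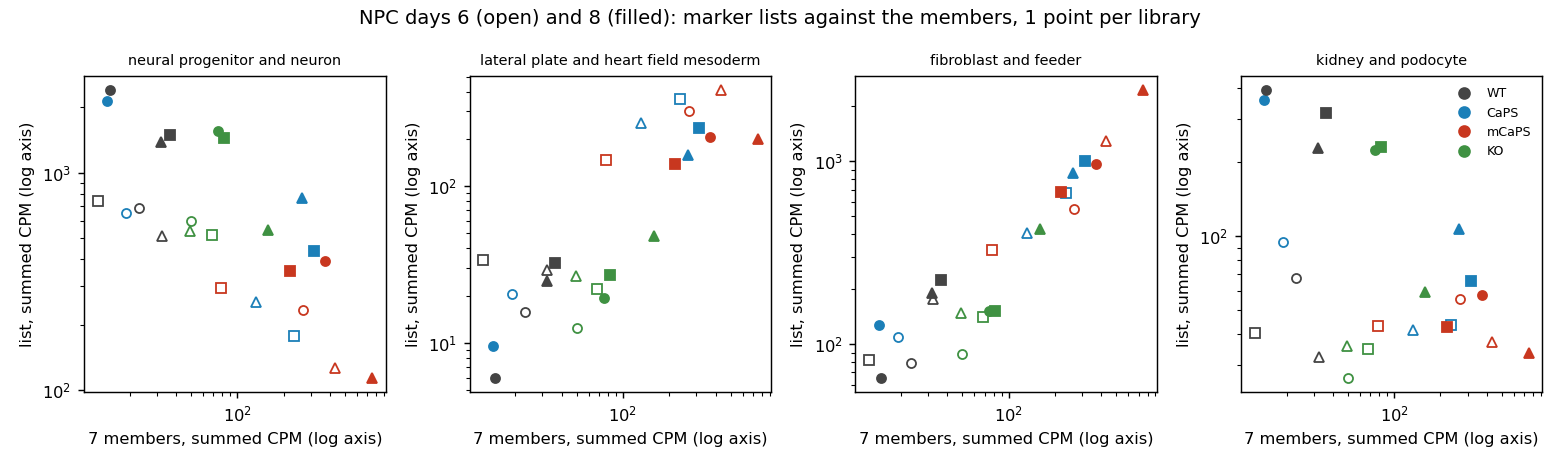
Summed CPM of 4 marker lists against the summed CPM of the 7 members, both on log axes, 1 point per NPC library (open day 6, filled day 8). Green is the KO-labelled line. Against WT, mCaPS libraries have higher members, lower neural sums and higher lateral plate and fibroblast sums, and CaPS library 1 (circles) lies among WT.

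The genes whose pattern over the 36 NPC libraries was most like the members were named by correlation of log2(CPM + 1) with the mean of the standardised members, among 17811 genes. The 10 highest were Elf4 and Adgra2 (0.93), Ak5, Fkbp7, Adm, Pparg, Mir483, Smim1 and Pde4b (0.92), and Il11ra1 (0.91). Adgra2, an adhesion receptor, had means of 267 CPM in mCaPS, 132 in CaPS, 106 in the KO-labelled line and 30.7 in WT on day 8. Mir483 lies within an intron of Igf2, so its count may hold reads of that gene. The points share lines and days, and the values are descriptions.

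Levels in the EB series were low; its table was scaled separately from the NPC table, so the levels are not tested against each other. On day 6 Upk3b was at or below 0.306 CPM and Tcf21 at or below 0.122 CPM in every library of the 4 lines, and Wt1 was the highest member, at 4.05 to 16.2 CPM. Against WT, 0 of 7 members passed in mCaPS (0.54% of all genes), CaPS (0%) and the KO-labelled line (0.646%) on day 6, each with 1 at an unadjusted p below 0.05 by edgeR, a level that 4.22%, 5.46% and 5.96% of all genes reached in that order. DESeq2 called 0 members in mCaPS and CaPS (0.788% and 0.442% of all genes) and Msln in the KO-labelled line (1%). There Msln read 0.0684, 0.635 and 1.12 CPM, against 1 count in the 3 WT libraries. The ratio was 50.8, with a 95% exact interval of 8.9 to 2028 for counting error only, and Msln passed in edgeR without KO-labelled library 1 (adjusted p = 0.0371).

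**Figure D5:**
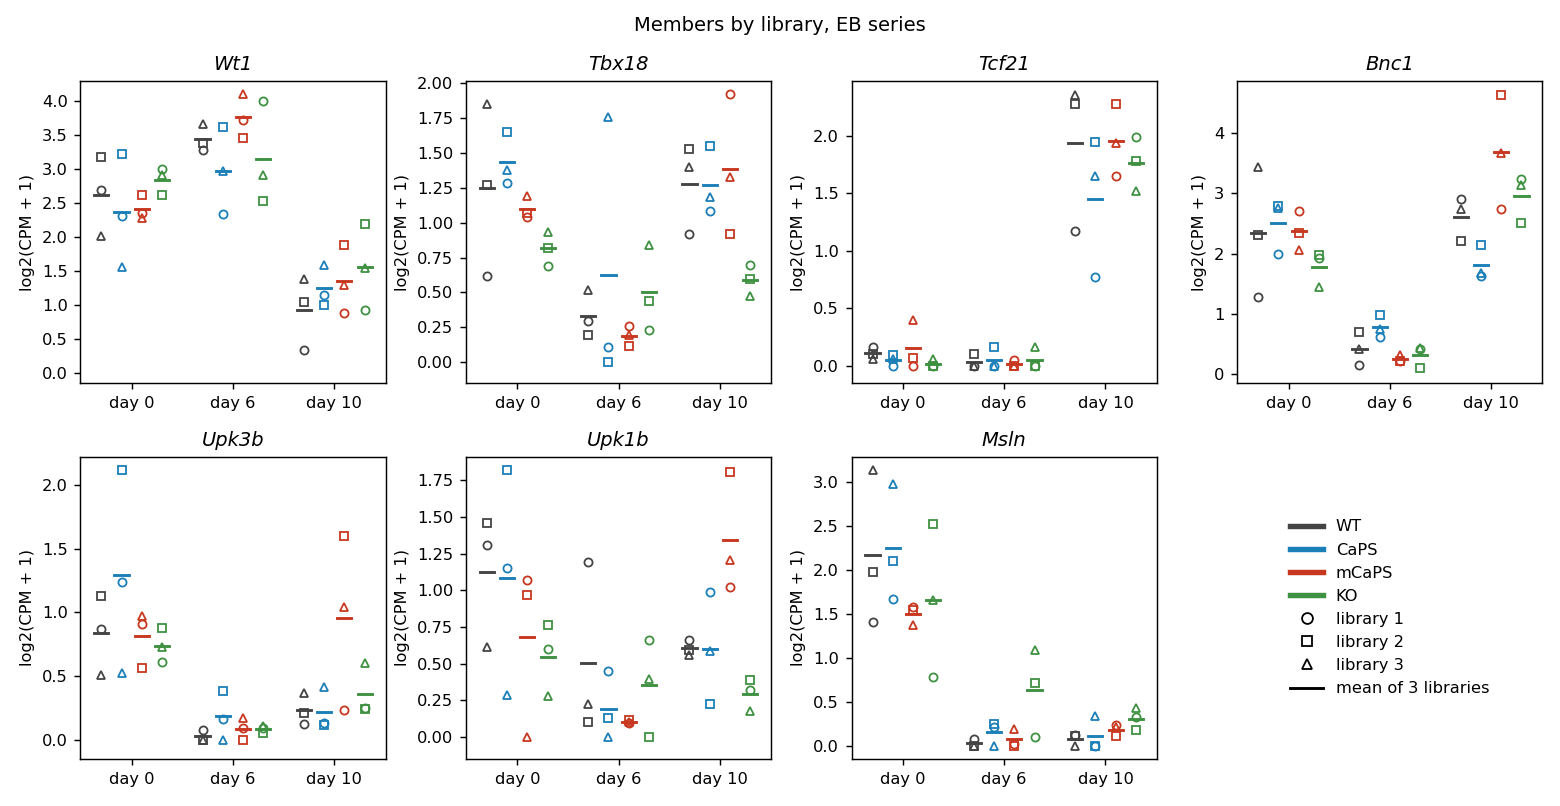
Level of each gene in the EB series as log2(CPM + 1), by day and line, 1 symbol per library and bars for means of 3. Bnc1 and Tcf21 are higher and Wt1 lower on day 10 than on day 6, and mCaPS libraries 2 and 3 are highest for Bnc1 and Upk3b on day 10.

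On EB day 10 none of the 7 members passed against WT by edgeR in mCaPS (0.708% of all genes), CaPS (0.00562%) or the KO-labelled line (0.877%). Unadjusted p-values were below 0.05 for 2, 0 and 0 members in that order, and for 6.59%, 4.29% and 9.56% of all genes. DESeq2 called 0 members in each, and 1.31%, 0.38% and 2.2% of all genes. Bnc1 read 5.65, 23.9 and 11.7 CPM in mCaPS and 6.49, 3.61 and 5.67 CPM in WT (log2 difference 1.39 ± 0.55, edgeR adjusted p = 0.527), and the groups overlapped through mCaPS library 1. Upk3b read 0.174, 2.02 and 1.06 CPM in mCaPS and 0.089, 0.157 and 0.289 CPM in WT (2.53 ± 0.88, 0.361), again overlapping through library 1. Against the KO-labelled line, mCaPS had 0 of 7 called (1.62%), 3 at an unadjusted p below 0.05 (11.6%) and 0 by DESeq2 (3.44%). In a fit of these 2 groups alone Upk1b passed (log2 difference 2.79, edgeR adjusted p = 0.0287), and 916 genes were called in place of 288. Libraries of equal number moved together only weakly here (r of 0.12, 0.18 and 0.12). With the replicate number as a block in that fit Upk1b stood at 2.78 (edgeR adjusted p = 0.0413). With the block 585 genes were called in all.

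CaPS against mCaPS gave the 1 member called between lines in the EB series (3.18% of all genes were called): Bnc1 was lower in CaPS, at 2.11, 3.42 and 2.2 CPM, by a log2 difference of -2.41 ± 0.57 (edgeR adjusted p = 0.0138). No CaPS library reached the lowest mCaPS library. The call for Bnc1 was lost without CaPS library 1 (0.0536) or 3 (0.104) or mCaPS library 2 (0.17), and in a fit of the 2 groups alone (0.119).

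From day 6 to day 10 the members did not move together. Bnc1 and Tcf21 rose while Wt1 fell in WT (3 of 7 changed, 16.2% of all genes), in mCaPS (6 of 7, 29.1%) and in the KO-labelled line (3 of 7, 9.07%). In CaPS Tcf21 rose and Wt1 fell (2 of 7, 7.79%), and the Bnc1 difference was 1.79 ± 0.61 (edgeR adjusted p = 0.0651). In WT, where libraries of equal number moved together, a fit of the 2 groups with the replicate number as a block called 4 members and 5303 genes in place of 2879, and without the block 4 members and 1955 genes. The member added in both was Tbx18 (log2 change 2.47, edgeR adjusted p = 0.0117 with the block, and 2.41, 0.032 without). Wt1 in WT went from 8.66, 9.39 and 11.6 CPM to 0.267, 1.06 and 1.6 CPM (-3.31 ± 0.62, 0.000443). Bnc1 in WT went from 0.113, 0.616 and 0.334 CPM to 6.49, 3.61 and 5.67 CPM (3.83 ± 0.64, 0.000157).

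Tcf21 held 2 counts in the 3 WT libraries of EB day 6 and 283 on day 10, where it read 1.25, 3.84 and 4.12 CPM. The ratio was 143, with an exact 95% interval of 39.3 to 1189 for counting error. In mCaPS Tcf21 went from 2 counts to 459, at 2.14, 3.84 and 2.82 CPM. In CaPS it went from 4 to 147 counts, a call lost without day 6 library 1 (adjusted p = 0.053, Tcf21) and in a fit of the 2 groups alone (0.257), though not with the block in that fit (0.0493), and in the KO-labelled line from 6 to 466. On day 10 its ranges overlapped between all 4 lines.

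In mCaPS Upk3b, Upk1b and Tbx18 passed as well. Upk3b rose by 3.98 ± 0.94 (edgeR adjusted p = 0.00159), Upk1b by 4.4 ± 1.13 (0.00333) to 1.03, 2.5 and 1.31 CPM, and Tbx18 by 3.56 ± 0.9 (0.00304) to 2.78, 0.888 and 1.51 CPM. Whether the change differed from WT was tested by interaction, added after the data had been seen. None of 21 tests of member and line passed by edgeR (0%, 0% and 0.00562% of all genes in CaPS, mCaPS and the KO-labelled line), with 4 at an unadjusted p below 0.05, 2 in CaPS (4.73% of all genes), 2 in mCaPS (2.21%) and 0 in the KO-labelled line (2.48%). The largest in mCaPS were Upk1b, 4.28 ± 1.49, and Bnc1, 2.28 ± 0.85, both with an adjusted p of 1.

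The Wt1 fall was sensitive to single libraries in 2 lines. In CaPS (-2.39 ± 0.6, edgeR adjusted p = 0.0161) the Wt1 call was lost without day 10 library 2 (0.0636) or day 6 library 2 (0.125), and in fits of the 2 groups alone, without the replicate block (0.257) or with it (0.0632). In the KO-labelled line (-2.04 ± 0.57, 0.0214) it was lost without day 10 library 1 (0.129) or 3 (0.0664) or day 6 library 1 (0.187), and in fits of the 2 groups alone, without the block (0.0574, Wt1) or with it (0.138). In WT and mCaPS no left-out library ended it. Without day 6 library 3, Tbx18 also passed in CaPS.

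Of the further mesothelial and epicardial genes, 10 of 19 rose and 1 fell in WT from EB day 6 to day 10 (median 1.62). In mCaPS 11 rose and 1 fell, with a median of 1.97. Of all genes, 16.2% in WT and 29.1% in mCaPS were called in either direction. Krt8 (2.64 ± 0.58, edgeR adjusted p = 0.00235), Krt18 (2.34 ± 0.57, 0.00464), Krt19 (2.71 ± 0.61, 0.00259) and Podxl (1.62 ± 0.38, 0.0036) rose in WT. The summed list reached 1340 to 1850 CPM in WT on EB day 10, while the 7 members summed to 9.65 to 13.8 CPM. Heart muscle markers were high in the same EB libraries, at 445 to 2360 CPM in WT and 1110 to 1430 CPM in mCaPS, and at 128 to 153 CPM in the KO-labelled line.

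The CaPS-R line was counted in tables of its own that hold part of the genes. Upk1b was not analysed here for this line, and levels are only set beside those of the other lines. On NPC day 8 library 1 stood above the other CaPS-R libraries for Tcf21, Upk3b, Bnc1, Wt1 and Tbx18. Msln did too, but at 0.101 CPM, under the 0.152 CPM that 3 counts make in library 1. The share of all genes highest in library 1 was not computed. Tcf21 read 6.94, 0.0293 and 0 CPM, Upk3b 3.14, 0.117 and 0.0854 CPM, Bnc1 2.43, 0 and 0.0854 CPM, and Wt1 11, 4.34 and 3.2 CPM. Bnc1, Tbx18 and Tcf21 did not pass the filter on low counts there. From day 6 to day 8, 0 of the 3 members tested (Upk3b, Wt1 and Msln) passed by edgeR (4.76% of all genes), 0 at an unadjusted p below 0.05 (19.9%) and 0 by DESeq2 (10.5%).

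In CaPS-R EBs, Wt1 fell from 5.22, 4.36 and 5.5 CPM on day 6 to 1.11, 0.71 and 1.07 CPM on day 10 (-2.35 ± 0.54, edgeR adjusted p = 0.0147), the 1 of 4 members tested that passed (11.3% of all genes). The Wt1 call was lost, with adjusted p of 0.0516 to 0.0706, without day 10 library 3 or any of the day 6 libraries. Tcf21 read 0, 0.0619 and 0 CPM on day 6 and 0.701, 0.316 and 0.846 CPM on day 10, with no test because it did not pass the filter.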

How the data were processed

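RNA was depleted of ribosomal RNA and made into directional libraries, per the labels' protocols. The authors deposited whole-number counts per gene, as separate NPC and EB tables of 36 libraries each and CaPS-R tables of 9 libraries each. The submitters' processing notes name cutadapt 1.14, STAR 2.7.0, featureCounts 1.6.3, edgeR, HOMER 4.10.4 and mm10. Another 9 sample columns matched no label and were not used. Gene names that read as dates were dropped, 23 from the EB table.

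Each table was fitted once with edgeR 4.0.16 in R 4.3.3 (filterByExpr, TMM scaling, robust quasi-likelihood F test), 12 groups in the NPC and EB tables. P-values were adjusted by Benjamini-Hochberg over all genes tested (17818 in NPC, 17791 in EB), and a gene changed where the adjusted p was below 0.05. A fold is the fitted log2 difference that edgeR reports, which is shrunken at low counts. Its SE is the unshrunken fitted difference divided by the root of F. At few counts a fold over its SE therefore need not match its p. CPM are counts over the TMM-scaled library size. Deposited counts are per gene, so levels between genes are compared per kilobase of exon. Scripts were tested on simulated data. Alternatives were upper quartile scaling, no filter, DESeq2 1.42.0, fits of the groups compared only, a replicate block, and each library left out.

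Libraries of equal number moved together (r above 0.1 in every pair) in 10 of 23 comparisons, the lowest at 0.11 (the pairing is the shared number in the labels). The fits reported have no block, and the block is an alternative in fits of the compared groups alone. No libraries of a group were identical.

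The members and lists were chosen with earlier results of these data known. All 7 members are named, then up to 4 genes of a list with the highest mean CPM in the libraries compared, and the 10 genes most like the members. Promoters are RefSeq's, 4 of 7 members matched. Intervals cover counting error only.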

Additional observations from a re-analysis of the deposited data

Results flagged for a closer look

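The change of Bnc1 from NPC day 0 to day 6 differed between lines. It was 8.55 ± 1.81 larger on the log2 scale in mCaPS than in WT (edgeR interaction, adjusted p = 0.0123), the 1 member of 7 to pass this test, which called 2.19% of all genes and was added after the data had been seen. Bnc1 went from 0.256, 0.205 and 0.856 CPM to 69.2, 21.9 and 110 CPM in mCaPS, and from 4.76, 6.92 and 1.23 CPM to 1.03, 1.13 and 3.31 CPM in WT. The Bnc1 difference lay between 7.96 and 9.43 under the alternatives run and passed in each, with adjusted p up to 0.0492. On NPC day 0 every WT library was above every mCaPS library for Bnc1. On EB day 0 Bnc1 overlapped, at 5.56, 4.06 and 3.19 CPM in mCaPS and 1.42, 3.98 and 9.82 CPM in WT. The fibroblast and feeder list summed to 446 to 4230 CPM in WT and 112 to 200 CPM in mCaPS on NPC day 0. The part of that list in the difference was not tested.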

How the results depend on the processing

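No member value that passed changed direction under the alternatives run, while 69 of 1387 alternative values of members that had not passed did, none of which passed. In the NPC interaction the Tcf21 difference was 3.72 as reported and -0.91 without WT day 0 library 1 (adjusted p = 0.544 and 0.942). Leaving out each library in turn gave 0 to 4 members changed for NPC day 6 mCaPS against WT, 0 to 1 for CaPS against WT, 0 to 3 for mCaPS against the KO-labelled line, and 1 to 2 for WT day 6 against day 0. In the EB series it gave 0 to 1 for the KO-labelled line against WT on day 6, 0 to 1 for CaPS against mCaPS on day 10, 1 to 3 for CaPS day 10 against day 6, and 0 to 2 for CaPS-R. DESeq2 called 5 members for mCaPS against WT on NPC day 6, 1 for CaPS against WT, 4 for mCaPS against the KO-labelled line, 1 for the KO-labelled line day 8 against day 6, 1 for the KO-labelled line against WT on EB day 6, 5 for EB WT day 10 against day 6, 2 for CaPS-R EB, and 3 for the NPC interaction. In all, DESeq2 called 3542 genes for EB WT day 10 against day 6 and 2322 for CaPS-R EB, in place of 2879 and 1479. Without the filter on low counts, 0 members were called for mCaPS against WT and 2 for CaPS-R EB, with 256 and 1459 genes in all. In fits of the compared groups alone, 5 were called for mCaPS against the KO-labelled line on NPC day 6 and 1 on EB day 10, 2 for that line's day 8 against day 6, 0 for CaPS against mCaPS on EB day 10, 0 for EB CaPS day 10 against day 6, and 3 for the interaction. With the replicate block the counts were 2 for mCaPS against the KO-labelled line on NPC day 6 and 1 on EB day 10, both paired, 1 for EB CaPS day 10 against day 6, also paired, 0 for CaPS against mCaPS on EB day 10, where numbers did not pair the libraries, and 3 for the interaction. The block left the count of members within 1.5 times in the other 19 of 23 comparisons, and upper quartile scaling did so in 23. Fits of the 2 groups alone called 103 genes in all for CaPS against mCaPS on EB day 10. For EB CaPS day 10 against day 6 they called 0 genes in all. With the block these totals were 80 and 409. Totals for the interaction under these settings are not given here. Counts over all genes moved by over 1.5 times in 17 of 23 comparisons with the block, 17 with DESeq2, 12 with fits of 2 groups, and 2 each without the filter and with upper quartile scaling, and in 7 of 12 without the EB libraries numbered 1. For mCaPS against WT on NPC day 6, leaving out 1 library gave 0 to 731 genes in place of 395. The causes were not tested. Upk1b, Msln and EB day 6 Tcf21 rest on few counts.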
